A study of Mus musculus with 7 samples.

Results

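Of the 756 mature miRNA sequences measured in mouse hippocampus, 4 were examined here, the products of the miR-219 and miR-338 hairpins: mmu-miR-219-5p, mmu-miR-219-3p, mmu-miR-338-5p and mmu-miR-338-3p. The rule that picks them uses their names, although the choice was made with earlier results of these data known. All 4 passed the filter on low values (10 or more reads per library on average), and 476 miRNAs passed it in all. Small RNA was sequenced in 7 libraries of hippocampi pooled from adult C57BL/6 mice of 3 to 5 months. By the labels, library 1 came from non-trained control mice (genotype given as wildtype), library 2 from non-trained NIPP1* mice, libraries 3, 4 and 5 from trained control mice and libraries 6 and 7 from trained NIPP1* mice. Trained mice were exposed to objects in an object recognition task and taken soon after the last session, whereas non-trained mice were only habituated to the arena. NIPP1* is a fragment of a nuclear inhibitor of protein phosphatase 1 (PP1) that is switched on by doxycycline through the CaMKIIalpha promoter, a promoter of forebrain excitatory neurons rather than of oligodendrocytes. Genotypes went unchecked in the data, since the transgene gives no small RNA counted here.

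A miRNA is cut from a hairpin transcript, and either arm of the hairpin (5p or 3p) can be loaded into an Argonaute protein, where bases 2 to 8, the seed, pair with target mRNAs. miR-219 and miR-338 are among the miRNAs most enriched in oligodendrocytes, the myelin-forming glia of the brain. They are known to promote the step from oligodendrocyte precursor to mature oligodendrocyte by repressing factors that keep precursors dividing, such as Pdgfra, Sox6 and Hes5.

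The mature sequences are given here because they set which targets each product can pair with and because 2 of the loci share a sequence. They are written 5′ to 3′ as DNA with the seed in capitals, and were read from the NCBI37/mm9 genome at the deposited loci, all on the minus strand. The sequences of miR-219-5p (RefSeq name mmu-miR-219a-5p), miR-338-5p and miR-338-3p are those of RefSeq.
mmu-miR-219-5p: tGATTGTCcaaacgcaattct
mmu-miR-219-3p: aGAATTGTggctggacatctgt
mmu-miR-338-5p: aACAATATcctggtgctgagtg
mmu-miR-338-3p: tCCAGCATcagtgattttgttg
The 4 seeds differ from one another, and 0 other measured sequences carried any of them, so the 4 miRNAs were not split copies of a larger seed family. They were 21 or 22 bases long, so that length plays little part in comparing their levels.

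miR-338-3p lay at chr11:119876095-119876116 and miR-338-5p at chr11:119876130-119876151, both in the Mir338 hairpin, which sits inside the protein-coding gene Aatk with none of the exons of that gene over it, and thus in an intron. miR-219-3p lay at chr2:29701165-29701186 in Mir219-2, a hairpin with no protein-coding gene over it, 629 bp from Urm1. miR-219-5p was listed at 2 loci, chr2:29701209-29701229 in Mir219-2 and chr17:34161997-34162017 in Mir219-1, which also lies outside protein-coding genes, 303 bp from Ring1. Its mature sequence is identical at both, and the genome differs from the first base after it, as shown with the next 3 bases in capitals.
miR-219-5p in Mir219-1: tgattgtccaaacgcaattctCGA
miR-219-5p in Mir219-2: tgattgtccaaacgcaattctTGT
The 3p arm of Mir219-1 is a different miRNA, listed as mmu-miR-219-3p* (RefSeq name mmu-miR-219a-1-3p), at chr17:34161955-34161976. It is shown because it shares a name but not a seed with miR-219-3p.
mmu-miR-219-3p*: aGAGTTGCgtctggacgtcccg
Over 22 positions it differed from miR-219-3p at 7, of which 2 lie in the seed.

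Levels are reads per 1000000 miRNA reads of a library (RPM), and the libraries held 7285306 to 10017052 miRNA reads, so that 1 read was worth 0.0998 to 0.137 RPM. The hippocampal label fitted the neuronal markers, with miR-128 at 53960 to 71940 RPM and miR-124 at 3637 to 5135 RPM, and hindbrain miRNAs were low, with miR-10a at most 26.1 RPM and miR-196b at most 0.12 RPM. The authors' table of the trained groups placed the libraries the other way round from the labels. Over 319 miRNAs its trained control means were rebuilt by libraries 6 and 7 with a root mean square error of 0.0119%, against 15.6% for the libraries with that label. Its trained NIPP1* means were rebuilt by libraries 3, 4 and 5 with an error of 0.024%, against 18.2%. Which placement is right cannot be told from the data, so the comparisons of trained groups are given by the labels and then by the grouping of the tables. The labels do not say that the libraries of a group came from separate animals, and p-values measure only the spread between these libraries.

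miR-338-3p, the guide arm of its hairpin, was the highest of the 4, at rank 38 of 756. It stood at 4788 RPM in library 1, 3834 in library 2, 3290, 2757 and 2958 in libraries 3, 4 and 5, and 4348 and 4104 in libraries 6 and 7. Libraries 1, 6 and 7 were thus the 3 highest, and the 3 libraries labelled trained control were the 3 lowest. The group means were 3002 ± 269 RPM (SD, n = 3) for trained control and 4226 ± 173 (SD, n = 2) for trained NIPP1*. The groups did not overlap, as was so for 26.5% of the 476 miRNAs.

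miR-219-3p followed at rank 94. Its level was 608.4 RPM in library 1, 511.7 in library 2, 371.2, 455.3 and 504.5 in libraries 3, 4 and 5, and 634.3 and 507.9 in libraries 6 and 7. Libraries 6 and 1 were the highest and library 3 the lowest, while libraries 2, 5 and 7 lay within a few RPM of each other. The means of 443.7 ± 67.4 RPM (SD, n = 3) for trained control and 571.1 ± 89.4 (SD, n = 2) for trained NIPP1* were set apart by little more than the SDs, and the groups were parted only by the gap between 504.5 and 507.9.

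miR-338-5p, the opposite arm of miR-338-3p, stood at rank 245. It was read at 41.62 RPM in library 1, 40.26 in library 2, 34.02, 41.66 and 37.73 in libraries 3, 4 and 5, and 50.92 and 39.13 in libraries 6 and 7. Only library 6 stood above the rest, and the trained groups overlapped, with means of 37.8 ± 3.82 RPM (SD, n = 3) and 45.03 ± 8.34 (SD, n = 2).

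miR-219-5p was the lowest of the 4, at rank 308, and the most variable. Taken as the mean of its 2 loci, it was 19.96 RPM in library 1, 10.78 in library 2, 9.085, 9.46 and 11.57 in libraries 3, 4 and 5, and 26.7 and 18.96 in libraries 6 and 7. The values fell into 2 sets with nothing between 11.57 and 18.96 RPM, the upper one made of libraries 1, 6 and 7. Trained control had a mean of 10.04 ± 1.34 RPM (SD, n = 3) and trained NIPP1* one of 22.83 ± 5.47 (SD, n = 2).

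**Figure D1:**
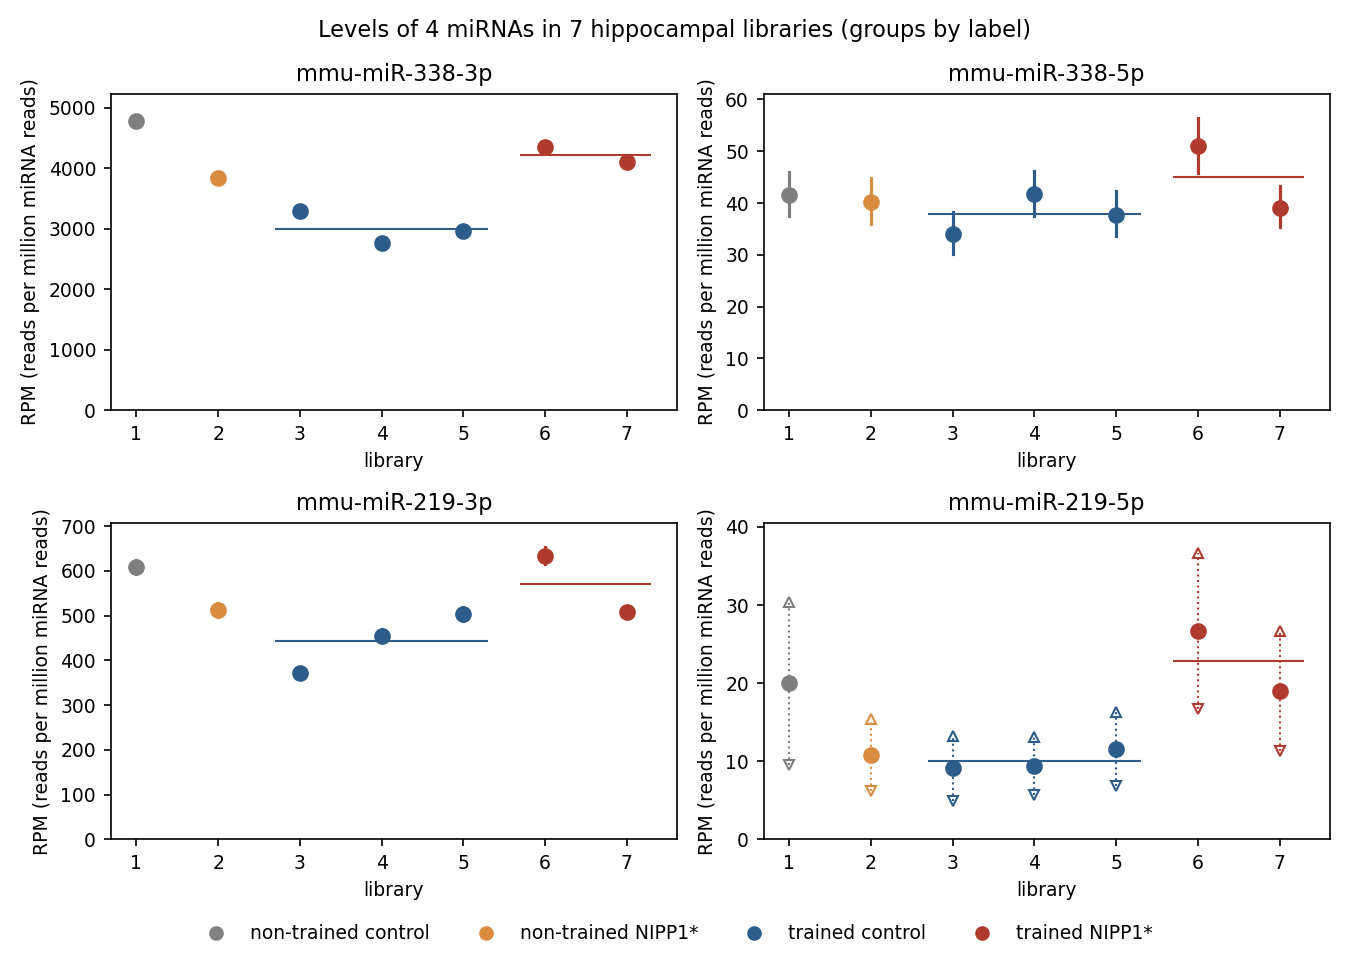
RPM (vertical axis, from 0) of each miRNA in the 7 libraries (horizontal axis), coloured by labelled group. Filled circles are the levels, vertical bars through them exact 95% counting intervals (too short to see for miR-338-3p), and horizontal lines the means of the trained groups. For miR-219-5p the circle is the mean of its loci, and open triangles show the locus in Mir219-1 (down) and in Mir219-2 (up). Libraries 1, 6 and 7 are the highest for miR-338-3p and miR-219-5p, at 4104 RPM or more and 18.96 RPM or more.

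The spread between libraries exceeded counting error for all 4, by different margins. The coefficient of variation over the 7 libraries was 20.2% for miR-338-3p, where counting error alone is at most 0.659%. It was 17.3% against 1.81% for miR-219-3p, 12.8% against 5.99% for miR-338-5p and 44.3% against 8.19% for miR-219-5p, with the reads of its loci summed. The highest library held 2.94 times the RPM of the lowest for miR-219-5p, and 1.5 to 1.74 times for the other 3. Counting error takes no account of PCR copies, since the reads carried no molecular identifiers. Together the 4 miRNAs made up between 0.326% (library 4) and 0.546% (library 1) of the miRNA reads, and miR-338-3p accounted for 84.23% to 88.82% of that sum.

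In both hairpins that gave 2 of the miRNAs, the 3p arm was the abundant one. miR-338-3p had 66.2 to 115 reads for each read of miR-338-5p, with library 4 lowest and library 1 highest. At the Mir219-2 hairpin, miR-219-3p had 17.3 to 34.6 reads for each read of miR-219-5p. This ratio was 20 in library 1, 17.3 in library 6 and 19.1 in library 7, and 27.9 to 34.6 in libraries 2, 3, 4 and 5. The arms of Mir219-2 were thus less unequal in the libraries where miR-219-5p was high, as its 5p arm varied more than its 3p arm. A ratio between sequences also carries the ligation preferences of the library kit.

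The deposited signal of miR-219-5p was not the same at its loci in spite of the shared sequence. The Mir219-2 locus was listed with 270, 124, 109, 110, 128, 267 and 267 reads in libraries 1 to 7, and the Mir219-1 locus with 85, 50, 40, 48, 53, 122 and 113. Mir219-2 exceeded Mir219-1 in 7 of 7 libraries, by 2.19 to 3.18 times, and libraries 1, 6 and 7 were the highest at either locus. The study's methods speak of uniquely mapped reads, and do not say how a read that matches both loci was counted. The authors' tables list the mean of the loci, which is the level used here. The other arm of Mir219-1, miR-219-3p*, was low, with 25, 24, 19, 21, 10, 14 and 20 reads in libraries 1 to 7. miR-219-3p from Mir219-2 exceeded it by 160 to 394 times. The strand opposite Mir338 carries miR-3065-5p (chr11:119876094-119876115), which had 0, 2, 0, 1, 1, 0 and 1 reads. Antisense reads at this hairpin were thus rare, and the 0 reads of library 1 allow up to 0.337 RPM of miR-3065-5p, taking 3 reads as the limit.

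**Figure D2:**
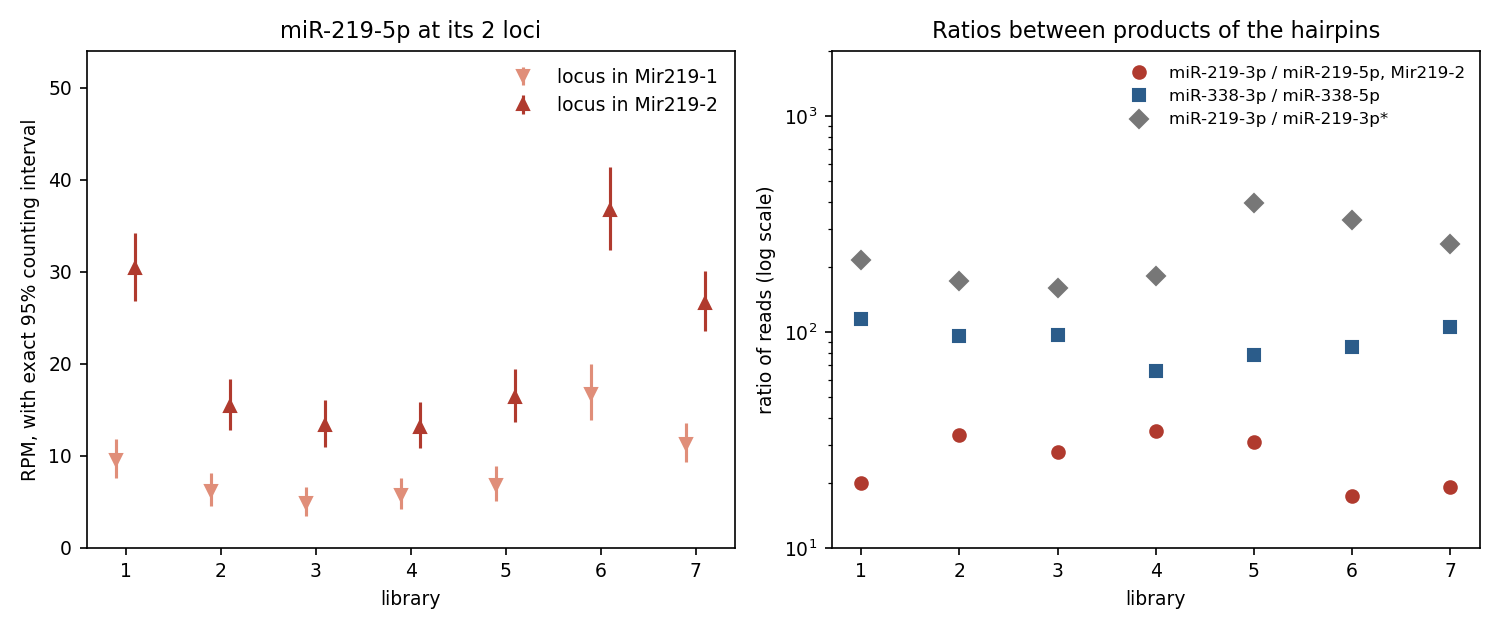
Left, RPM of miR-219-5p at its loci in Mir219-1 and Mir219-2 in each library, with exact 95% counting intervals. Right, ratios of reads between products of the hairpins on a log scale. The Mir219-2 locus is above the Mir219-1 locus in 7 of 7 libraries, and the ratio of miR-219-3p to miR-219-5p is lowest in libraries 1, 6 and 7 (17.3 to 20).

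The effect of PP1 inhibition without training was addressed by libraries 1 and 2, with 1 library per group and so without a replicate check. miR-219-5p was lower in the NIPP1* library, with a log2 ratio of -0.89 (exact conditional binomial 95% interval -1.16 to -0.62 on the 355 and 174 reads summed over its loci as if they were distinct reads, counting error only). On the mean of its loci, with 177.5 and 87 reads, the interval was wider, at -1.27 to -0.51. miR-219-5p stood at rank 2 from the lowest log2 ratio among 322 miRNAs that averaged 100 reads or more in the pair. For miR-338-3p the log2 ratio was -0.32 (-0.34 to -0.30) and for miR-219-3p -0.25 (-0.31 to -0.19). miR-338-5p was nearly level, at -0.048 (-0.27 to 0.17). None of the 4 reached a log2 ratio of 1 in size, which 3 of the 322 miRNAs (0.932%) did. Both loci of miR-219-5p were lower in library 2, by log2 ratios of -0.63 (-1.16 to -0.11) at Mir219-1 and -0.98 (-1.30 to -0.67) at Mir219-2. The difference holds for these libraries and cannot be separated from the spread between libraries, which was wide for miR-219-5p. As the tissue was bulk hippocampus, fewer oligodendrocytes and less of these miRNAs per cell cannot be told apart here or in the comparisons that follow.

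The trained genotypes were compared by limma, fitted to log2(RPM + 0.5) of the 7 libraries together, with Benjamini-Hochberg adjustment over 476 miRNAs. By the labels, miR-219-5p had a difference of 1.13 (SE 0.22) in trained NIPP1* against trained control, a fold of 2.19, with an adjusted p of 0.331. For miR-338-3p it was 0.50 (SE 0.12) with an adjusted p of 0.435. miR-219-3p showed 0.37 (SE 0.18, adjusted p = 0.659) and miR-338-5p 0.24 (SE 0.19, adjusted p = 0.718). All 4 differences were above 0 and none passed the test. Leaving out library 6 took miR-338-5p to 0.054 and miR-219-3p to 0.21, and leaving out library 7 took miR-338-5p to 0.43. The unadjusted limma p was 0.0014 for miR-219-5p and 0.00366 for miR-338-3p, ranks 2 and 4 of the 476. The background was 0 of 476 miRNAs called (0%), with 34 at an unadjusted p under 0.05, a number that ran from 10 (without library 7) to 113 (without library 3). edgeR on the recovered reads also called 0, and DESeq2 called 1, which was not one of the 4.

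The median difference of the 4 was 0.43 against 0.037 for all miRNAs tested. Libraries 6 and 7 did not overlap with libraries 3, 4 and 5 for miR-338-3p, miR-219-3p and miR-219-5p, all higher in libraries 6 and 7. Over the 476 miRNAs, 126 (26.5%) did not overlap between these libraries. By the grouping of the tables the same libraries change names, so the differences in NIPP1* against control become -1.13, -0.50, -0.37 and -0.24, with the same p-values.

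The response to training in control mice was addressed by libraries 3, 4 and 5 against library 1. By the labels, miR-338-3p was lower in trained than in non-trained control by 0.68 on the log2 scale (difference -0.68, SE 0.15, adjusted p = 0.583 with limma). miR-338-3p stood at rank 2 of the 476 by unadjusted p, and no miRNA had a lower adjusted p in that comparison. There 0 of 476 (0%) were called by limma and by edgeR, 1 by DESeq2, and 28 had an unadjusted p under 0.05 (14 without library 4, 108 without library 3). The difference was -0.96 (SE 0.28, adjusted p = 0.666) for miR-219-5p, -0.47 (SE 0.23, adjusted p = 0.666) for miR-219-3p and -0.14 (SE 0.24, adjusted p = 0.816) for miR-338-5p, which became -0.21 without library 4 and -0.069 without library 3. All 4 lay below 0, with a median of -0.57 against -0.090 over all miRNAs. By the tables' grouping, where libraries 6 and 7 are the trained controls, the differences were 0.17 for miR-219-5p, -0.10 for miR-219-3p, 0.10 for miR-338-5p and -0.18 for miR-338-3p, each with an adjusted p of 0.994. Non-trained control is a single library, whose spread the model takes from the trained groups.

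In NIPP1* mice the training differences by the labels were 1.03 (SE 0.30, adjusted p = 0.834 with limma) for miR-219-5p and between 0.14 and 0.15 for the other 3, whose adjusted p was 0.973 for miR-338-3p and 0.999 for the rest. By the tables' grouping they were -0.10 for miR-219-5p, -0.22 for miR-219-3p, -0.094 for miR-338-5p and -0.36 for miR-338-3p, with an adjusted p of 0.958 for each. Limma and edgeR called 0 of 476 (0%) by the labels, DESeq2 2, and 21 had an unadjusted p under 0.05 (10 without library 6, 37 without library 3). miR-219-5p had the largest of the 4 differences by the labels and miR-338-3p by the tables' grouping.

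Training over both genotypes does not depend on the placement of the trained libraries, since each genotype's difference enters with equal weight. The difference was -0.27 (SE 0.11, adjusted p = 0.873 with limma) for miR-338-3p and -0.16 (SE 0.17, adjusted p = 0.922) for miR-219-3p. It was 0.032 (SE 0.20, adjusted p = 0.983) for miR-219-5p and 0.0027 (SE 0.17, adjusted p = 0.997) for miR-338-5p. A shift common to both genotypes was therefore not seen for miR-219-5p, within an interval of -0.45 to 0.51, nor for miR-338-5p, within -0.41 to 0.41. In this comparison limma and edgeR called 0 of 476 (0%), DESeq2 called 1, and 16 had an unadjusted p under 0.05 (5 without library 6, 65 without library 3).

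By the labels, the training effect in NIPP1* minus that in control was 1.99 (SE 0.41, adjusted p = 0.288 with limma) for miR-219-5p and 0.82 (SE 0.21, adjusted p = 0.577) for miR-338-3p. It was 0.62 (SE 0.33, adjusted p = 0.72) for miR-219-3p and 0.29 (SE 0.35, adjusted p = 0.95) for miR-338-5p, which became 0.10 without library 6 and 0.48 without library 7. For miR-219-5p and miR-338-3p every trained control library lay below library 1 and every trained NIPP1* library above library 2. Of the 476 miRNAs, 104 (21.8%) lay on opposite sides in this way, 64 of them in the same directions. Again limma and edgeR called 0 of 476 (0%), DESeq2 2, and 37 had an unadjusted p under 0.05 (21 without library 6, 85 without library 3).

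Swapping the trained groups turns this difference into one between genotypes over both training states, a comparison added after the values were seen. By the tables' grouping NIPP1* minus control was -0.997 (SE 0.20, adjusted p = 0.288 with limma) for miR-219-5p and -0.41 (SE 0.11, adjusted p = 0.577) for miR-338-3p, -0.31 (adjusted p = 0.72) for miR-219-3p and -0.14 (adjusted p = 0.95) for miR-338-5p. By the labels the same comparison gave 0.14, 0.088, 0.059 and 0.097 in turn (0.016 for miR-219-5p, -0.022 for miR-219-3p and 0.0033 for miR-338-5p without library 6). With all 7 libraries each had an adjusted p of 0.997. There 0 of 476 (0%) were called by limma, edgeR or DESeq2, and 6 had an unadjusted p under 0.05 (1 without library 6, 17 without library 3). By the tables' grouping limma called 0, with 37 at an unadjusted p under 0.05, and DESeq2 called 2. The reading thus turns on the labels. If they hold, the training differences of miR-219-5p and miR-338-3p had opposite signs in the genotypes, although that of miR-338-3p in NIPP1* mice was 0.14 (SE 0.155). If the tables hold, the levels of both were below those of controls in NIPP1* at either training state. Neither version passed the test.

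Single libraries of the same data can also be set out by overlap, which adds no separate test. Libraries 1, 6 and 7, which are the controls by the tables, lay above libraries 2, 3, 4 and 5 without overlap for miR-219-5p and miR-338-3p, and overlapped with them for miR-219-3p and miR-338-5p. Over the 476 miRNAs, 59 (12.4%) did not overlap between these sets, 37 of them higher in libraries 1, 6 and 7. Between the libraries labelled NIPP1* and those labelled control, 0 of the 4 miRNAs and 20 of 476 (4.2%) did not overlap.

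**Figure D3:**
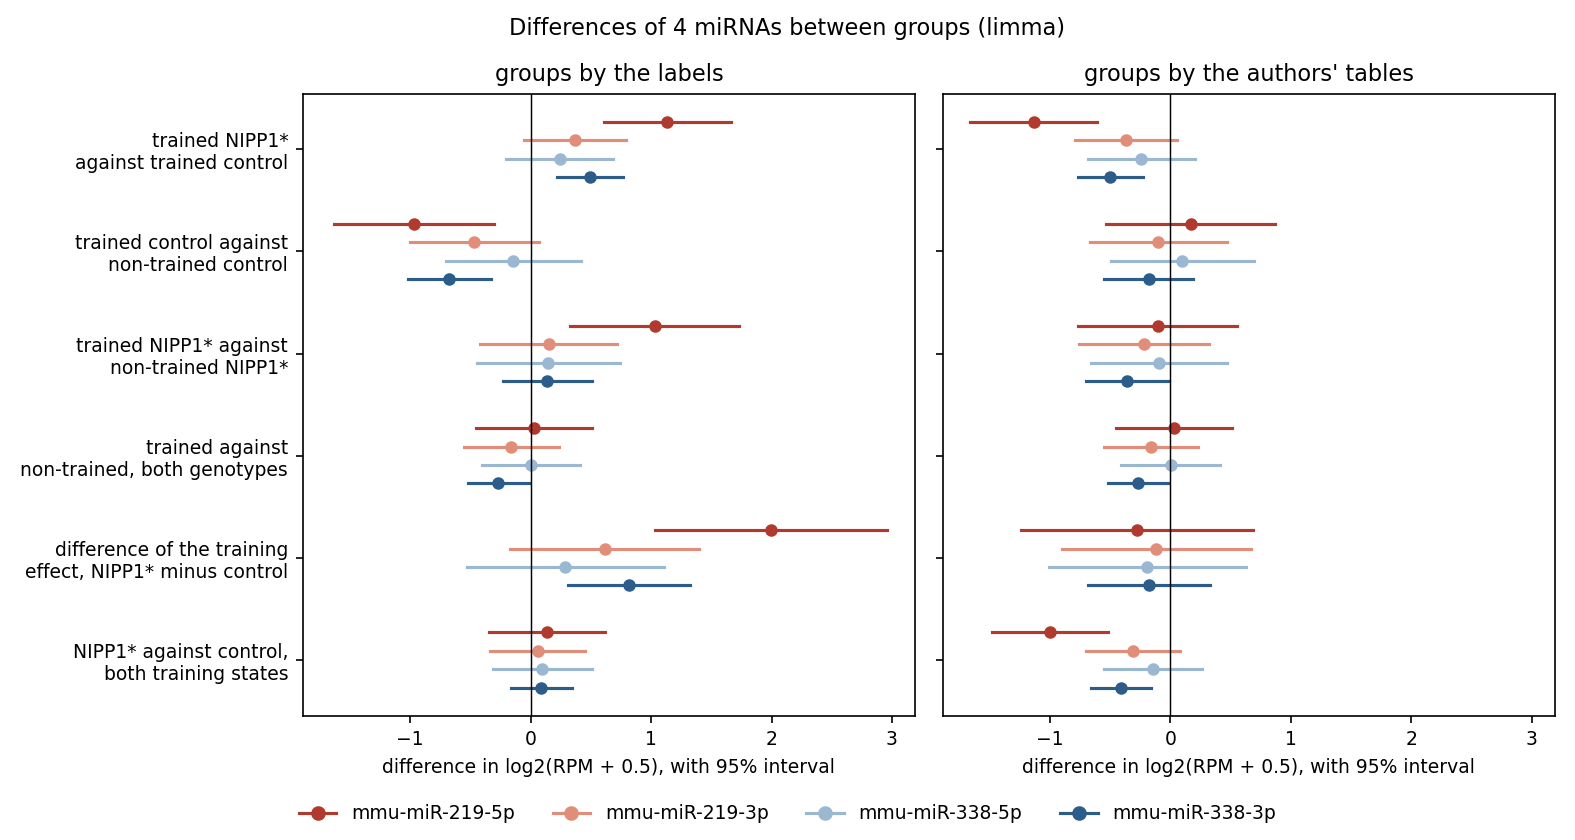
Differences in log2(RPM + 0.5) between groups (horizontal axis) for each miRNA and comparison, as points with 95% intervals from limma. Left, groups by the labels; right, groups by the authors' tables. miR-219-5p (1.13 in trained NIPP1* against trained control by the labels) changes sign with the grouping, while training over both genotypes is the same on either side.

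The miRNAs varied together to a limited degree. Relations were computed on log2(RPM + 0.5) over the 7 libraries, which share groups and base material, and miR-219-5p was left out of them since its values fell into 2 sets of 4 and 3 libraries, too few for a relation within each. Of the 3 remaining pairs, miR-219-3p and miR-338-5p had a Pearson r of 0.817 (exact permutation p = 0.0369, adjusted 0.111) and a Spearman rho of 0.643 (exact permutation p = 0.139, adjusted 0.208). The r fell to 0.174 without libraries 3 and 6, on which the relation rests. miR-219-3p and miR-338-3p had r = 0.692 (exact permutation p = 0.0819, adjusted 0.123) and rho = 0.821 (exact permutation p = 0.0341, adjusted 0.102), with r = 0.855 without those libraries. The arms of Mir338, which are cut from a single transcript, had r = 0.45 (exact permutation p = 0.324, adjusted 0.324) and rho = 0.321 (exact permutation p = 0.498, adjusted 0.498), with r = 0.243 without those libraries. No pair passed the adjusted test, which was two-sided.

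The miRNAs whose log2 levels were most like each of the 4 over the 7 libraries were taken, with the 4 themselves left out, among 315 that averaged 100 reads or more, as a description. For miR-338-3p they were miR-872 (r = 0.954), miR-93 (r = 0.952) and miR-101a (r = 0.947), and 7 of 315 reached r = 0.9. For miR-219-5p, whose values lie in 2 sets of libraries, they were miR-379* (r = 0.918, Spearman rho 0.643), miR-153 (r = 0.892, rho 0.643), enriched in neurons, and let-7g (r = 0.891, rho 0.821). miR-338-5p was most like miR-206 (r = 0.968), miR-200a (r = 0.826) and miR-330 (r = 0.784). miR-206, a muscle miRNA, stood at 23.06 RPM in library 6 against 10.24 to 13.83 in the others, and its Spearman rho with miR-338-5p was 0.929. For miR-219-3p they were miR-350* (r = 0.761), miR-206 (r = 0.747) and miR-490-3p (r = 0.73), all below its r of 0.817 with miR-338-5p.

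Other miRNAs linked to the oligodendrocyte lineage were described from 2 lists, and in bulk hippocampus their levels need not come from that lineage. Of 6 miRNAs linked to oligodendrocyte differentiation (miR-138, miR-23a, miR-32, miR-27a, miR-146a and miR-7a), 0 passed the limma test in any comparison under either grouping. In trained NIPP1* against trained control by the labels, 5 of the 6 were above 0, with a median of 0.26 against 0.037 over all miRNAs, and by the tables' grouping 1 of the 6 was, with a median of -0.26 against -0.037. By the labels the highest was miR-32 at 0.52 and the lowest miR-146a, an inflammation-linked miRNA, at -0.35. In trained against non-trained control 4 of 6 were below 0 by the labels, with miR-7a lowest at -0.61 and a median of -0.20, and 3 of 6 by the tables, with a median of 0.025. In trained against non-trained NIPP1* the range ran from -1.13 (miR-146a) to 0.55 (miR-32) by the labels and from -0.78 (miR-146a) to 0.031 (miR-32) by the tables.

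Of 7 miRNAs linked to oligodendrocyte precursors, miR-9 and the miR-17-92 group, 5 could be tested, as miR-17 and miR-18a had at most 1.24 and 1.6 RPM. miR-9 stood at rank 1 of all miRNAs measured, and bulk tissue does not show which cells it came from. Of the 5, 0 passed in any comparison. In trained NIPP1* against trained control by the labels 4 of 5 were above 0, from -0.32 (miR-92a) to 0.39 (miR-20a), and in trained against non-trained control 4 of 5 were below 0, with miR-19a lowest at -0.78. By the grouping of the tables, 1 of 5 was above 0 in the former (median -0.11) and 4 of 5 were below 0 in the latter (median -0.22). In trained against non-trained NIPP1* 2 of 5 precursor miRNAs were above 0, with a median of -0.19, where 4 of 6 on the differentiation list were, with a median of 0.12. By the tables both lists had 1 above 0, with medians of -0.097 and -0.080, so this contrast between the lists rests on the labels. Of all 476 miRNAs, 56.3% lay above 0 in trained NIPP1* against trained control, 59.5% below 0 in trained against non-trained control and 43.9% above 0 in trained against non-trained NIPP1*. These shares depend on scaling, since with TMM 56.3% lay below 0 in the first comparison and 50.2% below 0 in the second.

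The summed level of marker lists of other cells in each library was set beside the 4 miRNAs. Their own sum was 5458, 5060 and 4670 RPM in libraries 1, 6 and 7 and 3263 to 4397 in libraries 2 to 5. miR-338-3p made up 84.23% to 88.82% of it, and miR-219-3p and miR-338-5p overlapped between these sets. The summed neuronal list, with 5 of 6 miRNAs measured, was at 72170 to 75630 RPM in libraries 1, 6 and 7 and 76660 to 86050 in the others, but its members did not go together. miR-128, which makes up most of the sum, was lower in libraries 1, 6 and 7 without overlap, miR-124, the neuron-specific miRNA, was higher without overlap (4085, 4091 and 5135 against 3637 to 4054 RPM), and the other 3 overlapped. Over the 476 miRNAs, 59 (12.4%) did not overlap between these sets. The sum of a list of pituitary and epithelial miRNAs, 7 of 7 measured and mostly miR-7b, was at 3551 to 4580 against 2710 to 3511 RPM, yet 6 of the 7 overlapped between these sets and miR-375 was lower in libraries 1, 6 and 7. Of its epithelial miR-200 family, miR-200a was at 68.04 to 224.6 RPM, miR-200b at 36.04 to 110.9, miR-429 at 4.69 to 17.02, miR-200c at 0.45 to 11.25 and miR-141 at 0.24 to 7.42.

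Red blood cell miRNAs, with 3 of 4 measured, summed to 145.1 and 271.7 RPM in libraries 6 and 7, 66.21 to 137.8 in libraries 3, 4 and 5 and 126.5 in library 1. All 3 were higher in libraries 6 and 7 than in libraries 3, 4 and 5 without overlap. Of the 476 miRNAs, 126 (26.5%) did not overlap between these libraries, 89 of them higher in libraries 6 and 7. On the lineage lists, 4 of 6 differentiation miRNAs (miR-138, miR-23a, miR-32 and miR-27a) and 2 of 7 precursor miRNAs (miR-18a and miR-20a) were also higher without overlap, and 0 were lower. Among 5 leukocyte and microglial miRNAs, miR-223 was lower in libraries 1, 6 and 7 than in the others without overlap (44.2 to 48.32 against 50.76 to 54.63 RPM), as 12.4% of the 476 miRNAs did not overlap between these sets. miR-142-5p was higher in libraries 6 and 7 than in libraries 3, 4 and 5, where the share was 26.5%. Blood vessel miRNAs (4 of 4 measured, 14790 to 18450 RPM), leukocyte and microglial miRNAs (5 of 5, 857.7 to 997.4), hindbrain miRNAs (3 of 4, 26.58 to 47.96) and choroid plexus miRNAs (4 of 5, 552.3 to 2526) had sums that overlapped between these sets. Relative to the lowest sum, choroid plexus miRNAs had the widest range of these, with library 3 highest and library 5 lowest within trained control. The part of these cell types, and of the dissection, in the differences of miR-219 and miR-338 was not tested.

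**Figure D4:**
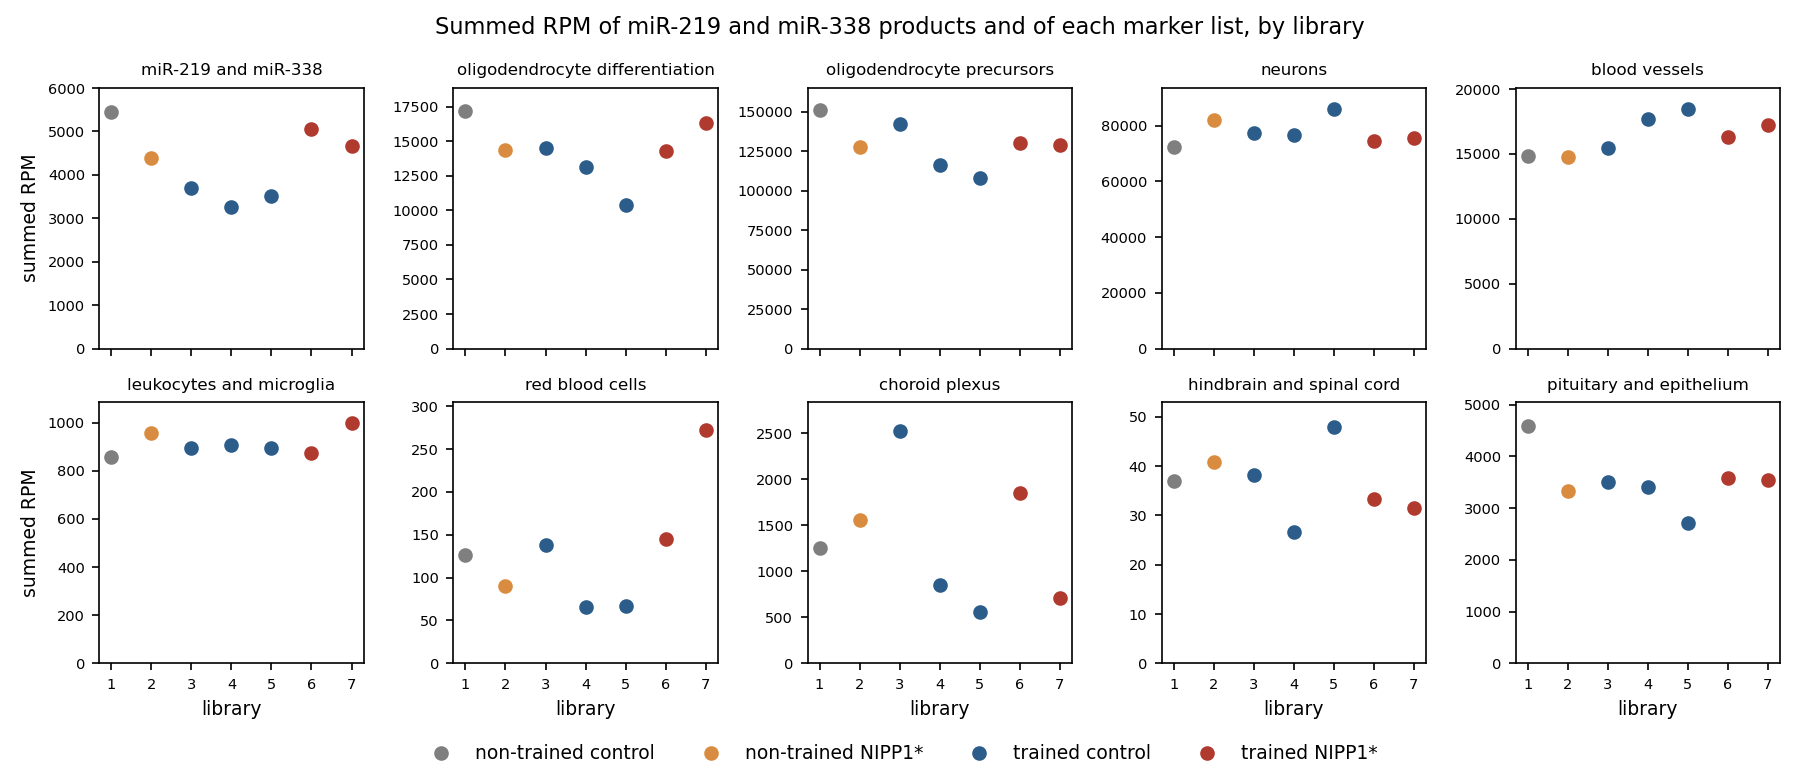
Summed RPM (vertical axes, from 0) of the miR-219 and miR-338 products and of 9 lists of other miRNAs in each library, coloured by labelled group. The miR-219 and miR-338 sum is higher in libraries 1, 6 and 7 (4670 to 5458) than in libraries 2 to 5 (3263 to 4397), and the choroid plexus sum varies from 552.3 to 2526 within trained control.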

How the data were processed

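Small RNA libraries of pooled hippocampus were made with a size-selecting TruSeq kit. The authors kept inserts of 19 to 26 nt, processed them with CASAVA 1.7.0, Bowtie, bedtools and ncPRO-seq against mm9. The values deposited per locus are a percent, relative to all miRNA reads in that library. The deposited signal of the authors' tables, group means of reads divided by size factors, served only to match names and groups, and their fold changes and p-values were not used. The tables hold 2 columns of values per library that were not used.

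Percent was rescaled to RPM and loci of 1 mature sequence were averaged. The 806 loci gave 756 sequences, 652 of them joined to a name, by hairpin and reads (571) or by reads alone (81). Low values were whole multiples of 1 read in 100% of cases (within 0.1 read), which gave back reads. Groups were compared with limma 3.58.1 (lmFit, eBayes with trend) on log2(RPM + 0.5), a scale that understates changes of low miRNAs, and called at an adjusted p under 0.05. edgeR 4.0.16 and DESeq2 1.42.0 on recovered reads, TMM scaling, other filters and pseudocounts and leaving out libraries were alternatives. Exact intervals cover counting error only. The miRNAs and lists were chosen with earlier results of these data known. Named beside the 4 were the other products of their hairpins, the 3 miRNAs most like each, and the highest and lowest of each lineage list. The rule leaving miR-219-5p out of correlations (a gap of over 40% of its log2 range with at least 2 libraries on either side), the use of its single loci and the comparison of genotypes over both training states were chosen after the values were seen. Tools were scipy 1.17.1, pandas 2.3.3 and numpy 2.4.6 under Python 3.11.15, and R 4.3.3.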

Additional observations from a re-analysis of the deposited data

Results flagged for a closer look

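For mmu-miR-219-5p and mmu-miR-338-3p, training went in opposite directions in the genotypes as labelled: each of the 3 trained control libraries lay below the non-trained control library, and both trained NIPP1* libraries lay above the non-trained NIPP1* library. Of all 476 miRNAs tested, 104 (21.8%) lay on opposite sides in this way. The difference of the training effects, tested as an interaction with limma, was 1.99 (adjusted p = 0.288) for miR-219-5p and 0.82 (adjusted p = 0.577) for miR-338-3p, so neither passed. By the grouping of the authors' tables the same differences were -0.27 and -0.18. No group held 4 libraries, so no library was tested for standing apart from its group.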

How the results depend on the processing

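None of the 4 miRNAs passed the adjusted threshold in any comparison under any alternative. The lowest adjusted p was 0.0654, for miR-338-3p in the trained groups without trained control replicate 1, and DESeq2 gave 0.0694 for miR-219-5p there. With TMM scaling, edgeR, DESeq2, other filters, other pseudocounts and models of only the groups compared, every difference of the 4 kept its direction. By the labels DESeq2 called 1 miRNA in trained NIPP1* against trained control, 1 in trained against non-trained control, 2 in trained against non-trained NIPP1*, 1 over both genotypes and 2 for the difference of the training effects, against 0 with limma. By the tables' grouping DESeq2 called 0 in trained against non-trained NIPP1*, 0 for the difference of the training effects and 2 in NIPP1* against control.

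The grouping of the authors' tables reversed 18 of 24 differences. Given for miR-219-5p, miR-219-3p, miR-338-5p and miR-338-3p in turn, trained NIPP1* against trained control became -1.13, -0.37, -0.24 and -0.50, the difference of the training effects -0.27, -0.12, -0.19 and -0.18, training in NIPP1* -0.10, -0.22, -0.094 and -0.36, and NIPP1* against control -0.997, -0.31, -0.14 and -0.41. Training in control became 0.17 for miR-219-5p and 0.10 for miR-338-5p. With the Mir219-2 locus alone, training over both genotypes was -0.034 for miR-219-5p, and with the Mir219-1 locus alone 0.20, where NIPP1* against control was 0.30.

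Leaving out each trained library in turn, the range for training in NIPP1* was -0.011 to 0.31 for miR-219-3p and -0.041 to 0.34 for miR-338-5p. Training over both genotypes ranged from -0.089 to 0.15 for miR-219-5p and from -0.091 to 0.097 for miR-338-5p, and NIPP1* against control from -0.022 to 0.14 for miR-219-3p, from 0.016 to 0.26 for miR-219-5p and from 0.0033 to 0.19 for miR-338-5p. The difference of miR-219-5p between the trained groups ranged from 0.89 to 1.38. Libraries 1 and 2 could not be left out, being the only ones of their groups. Without the 2 libraries farthest from the median, r was 0.174 for miR-219-3p with miR-338-5p and 0.243 for the arms of Mir338. The log2 ratio of miR-219-5p between the non-trained libraries was -0.63 at Mir219-1 and -0.98 at Mir219-2, within the interval on the mean of its loci (-1.27 to -0.51). The ratio of miR-219-3p to miR-219-5p depended on the loci used. It was 23.8 to 48.1 with the mean of the loci and 17.3 to 34.6 with the Mir219-2 locus. No error was computed for the arm ratios. No paired analysis was possible because the labels give no replicate numbers, and those used here only name the libraries of a group in their deposited order. The cause of these changes was not tested beyond the swap of libraries that the grouping makes. Depth limits the products with few reads, with as few as 40 reads at a locus for miR-219-5p, 10 for miR-219-3p* and 0 for miR-3065-5p.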
